A study of Mus musculus with 8 samples.

Results

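The collagen modifying genes were 10 genes chosen by name: the prolyl 4-hydroxylase subunits P4ha1 and P4ha2, the lysyl hydroxylases Plod1, Plod2 and Plod3, the chaperone Serpinh1 (HSP47), the proteinase enhancer Pcolce, and the lysyl oxidases Lox, Loxl1 and Loxl2. Of these, 9 could be read, through 15 probe sets annotated to that gene alone, out of 12393 genes on 22626 tested probe sets. Loxl2 was not measured, because its 1 probe set is also annotated to Gm21451; that probe set was called present on 0 of the 8 arrays. Total RNA came from a mouse preadipocyte line that was differentiated into adipocytes, infected between day 6 and day 8 with adenovirus, and collected 4 to 6 days after infection. In 4 samples the virus carried the spliced form of Xbp1 (sXBP1), and in 4 control samples it carried green fluorescent protein (GFP). All samples thus shared the adenoviral infection and a Swiss background strain, and the labels give the cells as F442A in some fields and as 3T3L1 in another. Whether replicates were separate cultures is not stated, and the p-values reflect only the spread among these samples, which may be technical.

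Collagen chains are modified while they enter the endoplasmic reticulum (ER). Prolyl 4-hydroxylases hydroxylate proline, which stabilises the triple helix, and lysyl hydroxylases prepare lysine for sugar addition and for cross-links. HSP47 binds the folded procollagen helix and releases it after export. Outside the cell, Pcolce speeds the removal of the C-terminal propeptide, and lysyl oxidases oxidise lysine in collagen and elastin so that the fibres cross-link. Fat cells sit in a collagen mesh that they and their precursors secrete. The ER stress sensor IRE1 splices the Xbp1 transcript, which then encodes an active transcription factor known for inducing ER folding genes. The comparison addressed how transcripts of this collagen group stood in cells given the spliced form, beside general ER folding genes.

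Promoter sequences show how the group stands against a folding gene in the motifs known for ER stress. Windows of 4 genes are shown, each running from 250 bases before to 50 bases after a transcription start, read 5′ to 3′ on the gene's strand, from RefSeq on GRCm38.p6. Of the 10 members, 6 had a window (P4ha1, P4ha2, Plod1, Plod3, Serpinh1 and Pcolce). Serpinh1 lies at chr7:99353190-99353489 on the minus strand, P4ha2 at chr11:54100674-54100973 on the plus strand, P4ha1 at chr10:59323046-59323345 on the plus strand, and Dnajc3, an ER cochaperone, at chr14:118937682-118937981 on the plus strand. Serpinh1 and P4ha2 are shown for the chaperone and for the hydroxylase subunit that rose, P4ha1 for the sister subunit that did not pass, and Dnajc3 for a folding gene with a full ER stress response element. Capitals mark matches on either strand to any motif searched: the ER stress response element (CCAAT, 9 free bases and CCACG), its second form (ATTGG, 1 free base and CCACG), TGACGTGG and TGACGTGA (the XBP1 response element), CCACG and ACGTG (the core of the hypoxia response element). CCACG is the end of both ER stress response elements, and TGACGTGG holds ACGTG and the reverse of CCACG, so these matches overlap. The free bases are not marked by the element itself.
Serpinh1: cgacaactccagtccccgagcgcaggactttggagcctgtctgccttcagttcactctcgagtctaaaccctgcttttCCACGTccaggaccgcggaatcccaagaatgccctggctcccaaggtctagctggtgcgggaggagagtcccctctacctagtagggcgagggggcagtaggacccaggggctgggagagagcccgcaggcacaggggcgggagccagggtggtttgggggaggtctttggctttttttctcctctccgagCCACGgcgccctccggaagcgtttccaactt
P4ha2: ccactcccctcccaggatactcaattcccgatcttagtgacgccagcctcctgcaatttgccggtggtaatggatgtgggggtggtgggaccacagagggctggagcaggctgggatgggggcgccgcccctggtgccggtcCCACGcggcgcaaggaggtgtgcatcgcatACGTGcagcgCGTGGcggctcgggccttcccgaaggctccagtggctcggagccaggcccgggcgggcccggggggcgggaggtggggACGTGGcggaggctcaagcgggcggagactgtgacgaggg
P4ha1: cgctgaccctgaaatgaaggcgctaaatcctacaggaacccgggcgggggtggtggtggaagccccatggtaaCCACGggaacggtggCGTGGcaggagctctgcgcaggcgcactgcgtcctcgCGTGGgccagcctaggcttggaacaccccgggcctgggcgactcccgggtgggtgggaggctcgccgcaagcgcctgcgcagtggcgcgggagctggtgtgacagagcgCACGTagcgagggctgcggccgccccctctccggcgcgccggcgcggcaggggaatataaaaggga
Dnajc3: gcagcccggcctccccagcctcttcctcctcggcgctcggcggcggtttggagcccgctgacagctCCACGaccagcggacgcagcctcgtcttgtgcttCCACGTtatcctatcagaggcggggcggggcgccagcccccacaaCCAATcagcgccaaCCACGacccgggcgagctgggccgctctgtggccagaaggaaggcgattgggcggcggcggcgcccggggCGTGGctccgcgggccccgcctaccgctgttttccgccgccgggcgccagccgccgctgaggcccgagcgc

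None of the 6 member windows held the ER stress response element, which was found for 0.137% of 27025 genes and for 8 of the 30 ER folding genes with a window. The 8 were Calr, Canx, Creld2, Dnajc3, Ero1b, Hsp90b1, Hspa5 and Pdia6, named for the motif. In the comparison of transcripts below, Canx and Hsp90b1 did not pass and the other carriers were higher in sXBP1 samples (limma). Sdf2l1 and Fkbp11, which rose more than Dnajc3, held CCACG but not the full element. Whether the element goes with the change was not tested. Its second form was found in 0 member windows and 1 folding gene, TGACGTGG in 0 member windows and 2 folding genes, and TGACGTGA in 0 member windows and 1 folding gene. Over all genes the shares were 0.0444%, 0.714% and 0.507%. At shares this low, finding each of these elements in 0 of 6 windows says little about the members. The short CCACG was found in 5 of the 6 member windows, 24 of the 30 folding genes and 35.5% of all genes, and ACGTG in 4, 16 and 21.8%. In Dnajc3 the full element began at position -105 from the start. These are matches of letters in short windows and were not tested as binding sites.

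The collagen modifying genes moved little and in both directions. Of 9 measured, 2 were higher in sXBP1 samples (Lox and P4ha2), 2 were lower (Plod2 and Pcolce) and 5 did not pass (limma, Benjamini-Hochberg adjusted p under 0.05). Over all genes 27.3% passed, 12.9% higher and 14.4% lower, so the counts of members say little about the group. The median log2 change (sXBP1 minus GFP, on the log2(signal + 16) scale after quantile normalization) was 0.02 over the 9 genes and -0.01 over all genes. The largest change was 0.32, for Lox. On the values as deposited 1 member was higher and 0 lower, and after centring each array on its median 4 were higher and 0 lower (limma; at an unadjusted p under 0.05, 3 and 0 were lower). Over all called probe sets the share that was higher was 46.9%, and it was 33.4% as deposited and 60.7% after median centring. Without GFP replicate 2 or GFP replicate 4 the count of lower members was 0 (limma; 2 at an unadjusted p under 0.05), and it was 1 without GFP replicate 3, sXBP1 replicate 2 or sXBP1 replicate 3. All 15 probe sets were called present on all 8 arrays in the authors' deposited table.

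**Figure D1:**
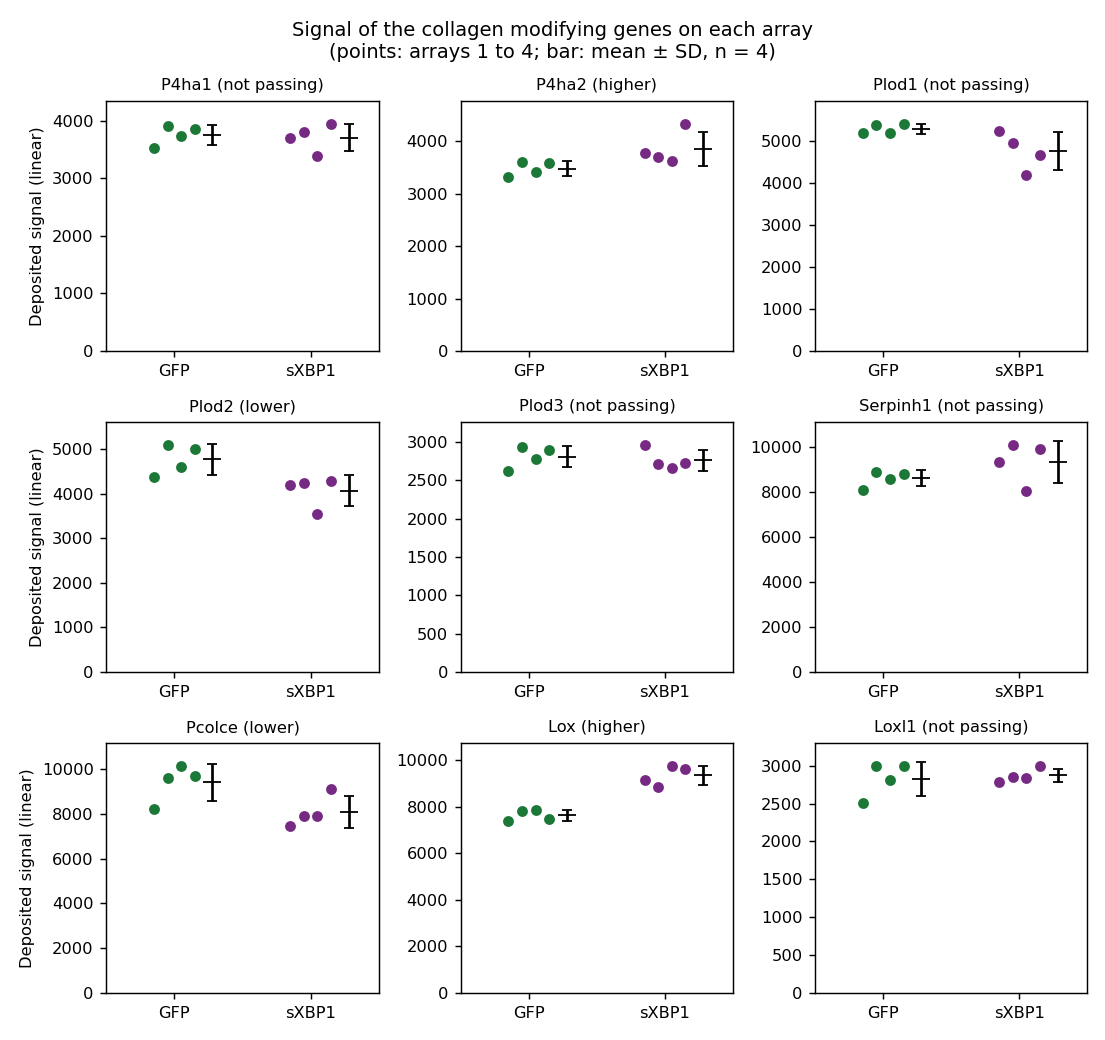
Deposited linear signal (vertical axis, from 0) of the 9 measured genes, 1 panel per gene, on 4 GFP arrays (green) and 4 sXBP1 arrays (purple), with the mean and SD of each group beside the points. Lox separates the groups most clearly, with sXBP1 arrays from 8852.5 upward and GFP arrays up to 7844.5.

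P4ha1 and P4ha2 encode the catalytic subunits of prolyl 4-hydroxylase. P4ha1 gave signals of 3526.9, 3910.9, 3732.9 and 3854.8 on GFP arrays 1 to 4 and of 3697.6, 3805.3, 3382.9 and 3947.2 on sXBP1 arrays 1 to 4. The groups overlapped, and the log2 change was 0.00 ± 0.04 (SE; 95% confidence interval -0.09 to 0.10; limma adjusted p = 0.956). Its other probe set changed by -0.03 (adjusted p = 0.853). P4ha2 gave 3313, 3610.1, 3421.9 and 3577.6 on GFP arrays and 3774.7, 3696.4, 3624.9 and 4334.5 on sXBP1 arrays. All 4 sXBP1 arrays lay above all 4 GFP arrays, with a narrow gap, and sXBP1 replicate 4 stood highest. P4ha2 rose by 0.17 ± 0.04 (adjusted p = 0.00722), or 1.13-fold. It did not pass on the values as deposited (0.14, adjusted p = 0.168) or without a variance trend (adjusted p = 0.0591).

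P4hb, protein disulfide isomerase, is the other subunit of prolyl 4-hydroxylase and also a general folding enzyme. The GFP arrays gave a mean of 13924 ± 514 (SD, n = 4) and the sXBP1 arrays one of 16261 ± 888. It rose by 0.17 ± 0.05 (limma adjusted p = 0.0331), a value close to that of P4ha2, and did not pass without a trend (adjusted p = 0.117) or when any 1 array was left out, except sXBP1 replicate 4 (adjusted p = 0.0524 to 0.0966).

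The lysyl hydroxylases split. Plod1, which hydroxylates lysine in the helix, gave signals of 5176.6, 5370.2, 5183.4 and 5400.7 in GFP and 5225.8, 4954, 4190.5 and 4658.8 in sXBP1 samples. sXBP1 replicate 1 lay within the GFP range and the other 3 below it, with a log2 change of -0.14 ± 0.08 (adjusted p = 0.243). Without sXBP1 replicate 1 the change was -0.20 (adjusted p = 0.0392). Plod2, which hydroxylates lysine at the chain ends and so sets the type of cross-link, gave 4380.5, 5099.9, 4592.9 and 5004.1 in GFP and 4193.5, 4236.8, 3542.9 and 4289.4 in sXBP1 samples. Every sXBP1 array lay below every GFP array. Plod2 fell by 0.21 ± 0.06 on the log2 scale (limma adjusted p = 0.0186), and its other probe set fell by 0.26 ± 0.06 (adjusted p = 0.00818).

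The fall of Plod2 depended on the scaling. After median centring its probe sets changed by -0.09 and -0.14 (adjusted p = 0.261 and 0.076). On the values as deposited the brighter changed by -0.23 (adjusted p = 0.0567), and without GFP replicate 2 or GFP replicate 4 by -0.21 and -0.20 (adjusted p = 0.0557 and 0.0588). It also did not pass without a trend (limma adjusted p = 0.0726). The other probe set passed as deposited (-0.29, adjusted p = 0.0168), without a trend (adjusted p = 0.0409) and without any 1 array (adjusted p = 0.00297 to 0.0267). Plod3, which also adds sugars to hydroxylysine, gave 2625.3, 2937.4, 2775.5 and 2897.9 in GFP and 2964.3, 2711.9, 2657.6 and 2721.3 in sXBP1 samples. The groups overlapped, with a log2 change of 0.02 ± 0.06 (95% confidence interval -0.12 to 0.15; adjusted p = 0.901).

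Serpinh1 encodes HSP47, the ER chaperone dedicated to collagen. Its brighter probe set gave 8116, 8911.1, 8603.9 and 8826.8 in GFP and 9351.3, 10113.1, 8039.2 and 9905.2 in sXBP1 samples. Of the sXBP1 arrays, 3 lay above all GFP arrays and replicate 3 below them, with a log2 change of 0.15 ± 0.06 (95% confidence interval 0.03 to 0.28; limma adjusted p = 0.0797). The other probe set, of a type that may also bind related transcripts, rose by 0.17 ± 0.05 (adjusted p = 0.028), from 6702 ± 233 (SD, n = 4) to 7502 ± 395. The brighter probe set passed without sXBP1 replicate 3 (0.20, adjusted p = 0.00525), after median centring (0.26, adjusted p = 0.00637), among probe sets present on at least 4 arrays (adjusted p = 0.0353) and as the mean of both (0.16, adjusted p = 0.0326). The other did not pass as deposited, without a trend or without any 1 of 5 arrays, GFP replicates 1, 2 and 3 and sXBP1 replicates 1 and 2 (adjusted p = 0.0501 to 0.106). The direction was upward under each of these settings.

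Pcolce encodes a secreted protein that raises the activity of the procollagen C-proteinase. Its brighter probe set gave 8227.2, 9594.5, 10153.3 and 9672.5 in GFP and 7448.9, 7881.9, 7907.7 and 9117.6 in sXBP1 samples. The groups overlapped, since GFP replicate 1 lay below sXBP1 replicate 4. Pcolce fell by 0.19 ± 0.06 on the log2 scale (adjusted p = 0.0326), and its other probe set, with groups that did not overlap, fell by 0.21 ± 0.05 (adjusted p = 0.00909). After median centring the probe sets changed by -0.07 and -0.09 (adjusted p = 0.508 and 0.259), and as deposited the brighter changed by -0.22 (adjusted p = 0.0832). The brighter probe set also missed the threshold without a trend (adjusted p = 0.106) and when any 1 of GFP replicates 2, 3 and 4 or sXBP1 replicates 1, 2 and 3 was left out (adjusted p = 0.0573 to 0.0978). The other passed as deposited (-0.23, adjusted p = 0.0295) and without any 1 array (adjusted p = 0.00431 to 0.0332), but not without a trend (adjusted p = 0.0516). The proteinase itself, Bmp1, named after its value was seen, changed by 0.39 ± 0.15 (adjusted p = 0.101).

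Lox, the founding lysyl oxidase, showed the clearest change of the group. Its brightest probe set gave 7408.5, 7828.5, 7844.5 and 7460.1 in GFP and 9146.3, 8852.5, 9770 and 9624.8 in sXBP1 samples. All 4 sXBP1 arrays lay above all 4 GFP arrays, with a clear gap. Lox rose by 0.32 ± 0.05 (limma adjusted p = 0.000581), or 1.24-fold. A second probe set gave 3832.6, 4398.3, 4954.4 and 4693.8 in GFP and 5227.9, 5400.1, 5527.6 and 6804.6 in sXBP1 samples and rose by 0.38 ± 0.07 (adjusted p = 0.00334). Both passed under every alternative setting that was run. The remaining probe set was dim, with a mean signal of 70.6 ± 15.3 (SD, n = 4) on GFP arrays and 61.5 ± 8.88 on sXBP1 arrays, and changed by -0.05 ± 0.17 (adjusted p = 0.881).

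Loxl1, which acts mainly on elastin, gave 2506.3, 2992.3, 2806.6 and 2990.8 in GFP and 2790, 2855.5, 2840 and 2999.8 in sXBP1 samples. The groups overlapped, with a log2 change of 0.07 ± 0.04 (95% confidence interval -0.03 to 0.16; adjusted p = 0.346), and it passed only after median centring (0.17, adjusted p = 0.0386). Loxl3, another family member named after its value was seen, rose by 0.55 ± 0.08 (adjusted p = 0.000482). Loxl4, also named after its value was seen, changed by 0.09 ± 0.18 (adjusted p = 0.801), so 2 of the 4 measured lysyl oxidases rose, against 12.9% of all genes.

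**Figure D2:**
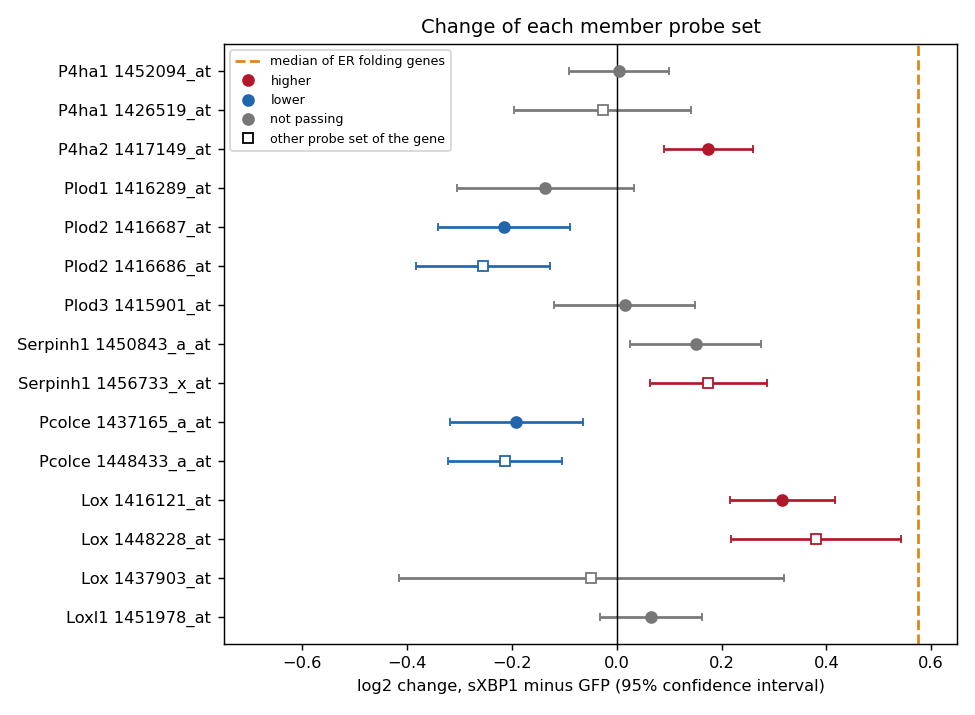
Log2 change (sXBP1 minus GFP, horizontal axis) with its 95% confidence interval for each of the 15 member probe sets, coloured by limma call, with the median of the ER folding genes as a dashed line. Lox stands apart on 2 of its 3 probe sets, and every interval ends below the dashed line at 0.58.

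General ER folding genes moved further as a list, though not every gene did. Of 34 measured, 25 rose, 0 fell and 9 did not pass (limma; at an unadjusted p under 0.05, 28 rose and 0 fell), against 12.9% of all genes higher, and their median log2 change was 0.58. The log2 change was 2.39 ± 0.10 for Sdf2l1, which assists ER chaperones, 1.53 ± 0.06 for Dnajc3 and, on 2 of 3 probe sets, 2.29 ± 0.09 for the isomerase Fkbp11. Hspa5, Hsp90b1, Calr and Canx, named after their values were seen, changed by 0.27, 0.29, 0.25 and 0.07, below the 0.32 of Lox. Of these, Hspa5 and Calr passed (limma adjusted p = 0.00127 and 0.00268), and Hsp90b1 and Canx did not (limma adjusted p = 0.052 and 0.476). The upper 95% limits of the other 8 members stood at or below 0.29, and Lox reached 0.54 on its second probe set. Over all alternative settings the highest upper limit outside Lox ranged from 0.27 to 0.43, while the folding median ranged from 0.49 to 0.68. For Lox the limit passed the folding median under several settings, among them the values as deposited (0.57 against 0.53) and without GFP replicate 3 (0.59 against 0.56). The lists were chosen with results known, and the difference between them was not tested.

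The members lay high on the array's scale, with mean signals from 2786 to 8983, above 93.8% of probe sets. Of the 7 ER folding genes inside that range of signals, 5 rose and 0 fell, with a median of 0.60. Of the 4 above it 2 rose, with a median of 0.12, and of the 23 below it 18 rose, with a median of 0.62. The medians inside and below that range were close, and the median above it was lower, on few genes inside and above it. Whether signal level had a part in the small changes of the members was not tested.

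**Figure D3:**
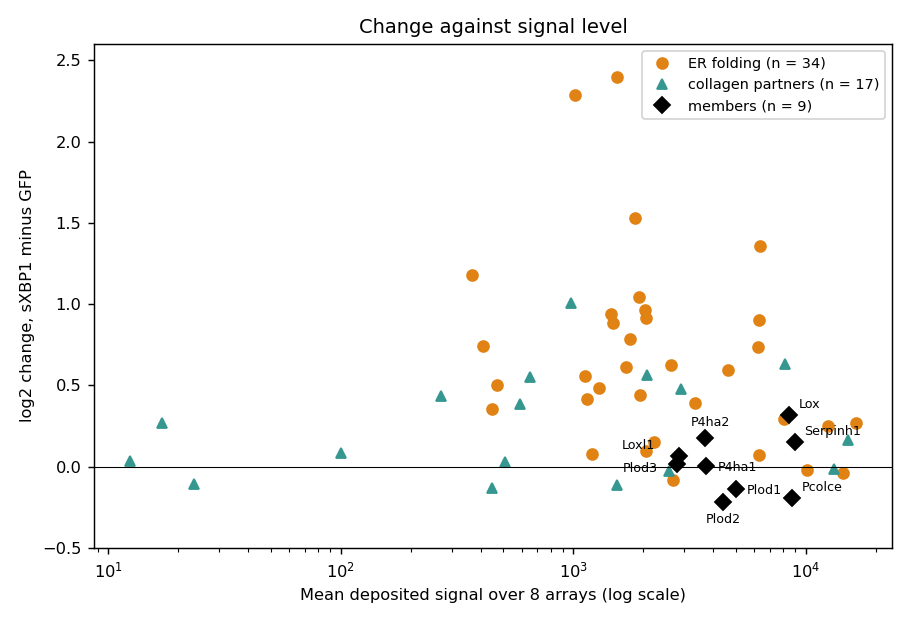
Log2 change (vertical axis) against mean deposited signal over 8 arrays (horizontal axis, log scale) for the 9 members (black diamonds, named), 34 ER folding genes (orange circles) and 17 collagen partner genes (teal triangles). The members lie between 2786 and 8983 on the signal axis, and 5 of the 7 folding genes in that span rose.

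Among other genes of collagen maturation, some rose and none fell. Of 24 listed, 17 were measured: 7 rose, 0 fell and 10 did not pass (limma; at an unadjusted p under 0.05, 8 were higher and 1 lower), with a median of 0.17. The 7 include P4hb, also a general folding enzyme, whose call was lost when most single arrays were left out, as given above. Over all genes 12.9% were higher and 14.4% lower. The prolyl 3-hydroxylation complex consists of P3h1, Crtap and Ppib. P3h1, the enzyme, rose by 1.01 ± 0.09 (adjusted p = 4.09e-05), from a signal of 664 ± 109 (SD, n = 4) to 1287 ± 214, and Ppib, cyclophilin B, by 0.63 ± 0.04 (adjusted p = 4.39e-06). Crtap, the remaining subunit, changed by -0.02 ± 0.05 (95% confidence interval -0.15 to 0.10; adjusted p = 0.821). P3h4, a partner of lysyl hydroxylation complexes, rose by 0.56 ± 0.04 (adjusted p = 7.5e-06), and Mia3 (TANGO1), which loads procollagen for export from the ER, by 0.48 ± 0.06 (adjusted p = 0.000158). Creb3l1, a membrane-bound transcription factor that induces collagen genes in bone cells, was named after its value was seen and rose by 0.44 ± 0.08 (adjusted p = 0.00338). P3h3, another prolyl 3-hydroxylase named after its value was seen, changed by 0.03 ± 0.06 (adjusted p = 0.784). Fkbp10, a collagen prolyl isomerase, was not measured here.

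More collagen chain genes fell than rose. Of 25 collagen chain genes measured, 1 rose, 9 fell and 15 did not pass. Over all genes 12.9% were higher and 14.4% lower. The median of the chains, -0.10, is the value of Col4a6, a dim gene with a mean signal of 25.9 and no present call on GFP arrays. Of the 15, 4 (Col4a3, Col4a4, Col9a1 and Col10a1, named for this) have no present or absent call in the authors' deposited table. Col4a5 of basement membranes fell by 0.82 ± 0.06, and Col15a1 and Col18a1, which border basement membranes, fell by 0.83 ± 0.13 and 0.63 ± 0.09 on the log2 scale. Col4a1, Col4a2, Col5a2 and Col5a3, named after their values were seen, fell by 0.26, 0.20, 0.12 and 0.23. No values after median centring are given for them, and the similar falls of Plod2 and Pcolce did not pass under that scaling. Col7a1, of anchoring fibrils, rose by 0.70 ± 0.22 (adjusted p = 0.0428) from a dim signal and did not pass as deposited (0.56, adjusted p = 0.133), with a block for the replicate number (adjusted p = 0.0613), with a pseudocount of 64 (adjusted p = 0.0502), without a trend (adjusted p = 0.0688) or without any 1 of GFP replicates 1, 3 and 4 and sXBP1 replicates 3 and 4 (adjusted p = 0.0879 to 0.112). It passed under the other settings, among them median centring (adjusted p = 0.0356). Among 14 elastic fibre genes 1 rose, 3 fell and 10 did not pass, counts that say little beside the shares over all genes. Eln, elastin and a lysyl oxidase substrate, fell by 0.84 ± 0.14 on 1 of 2 probe sets, whereas Emilin1, an elastic fibre glycoprotein, rose by 1.19 ± 0.07. The other 2 genes that fell, Mfap2 and Mfap4, were called present on 1 and 0 of the 8 arrays, so no size of change is given for them.

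**Figure D4:**
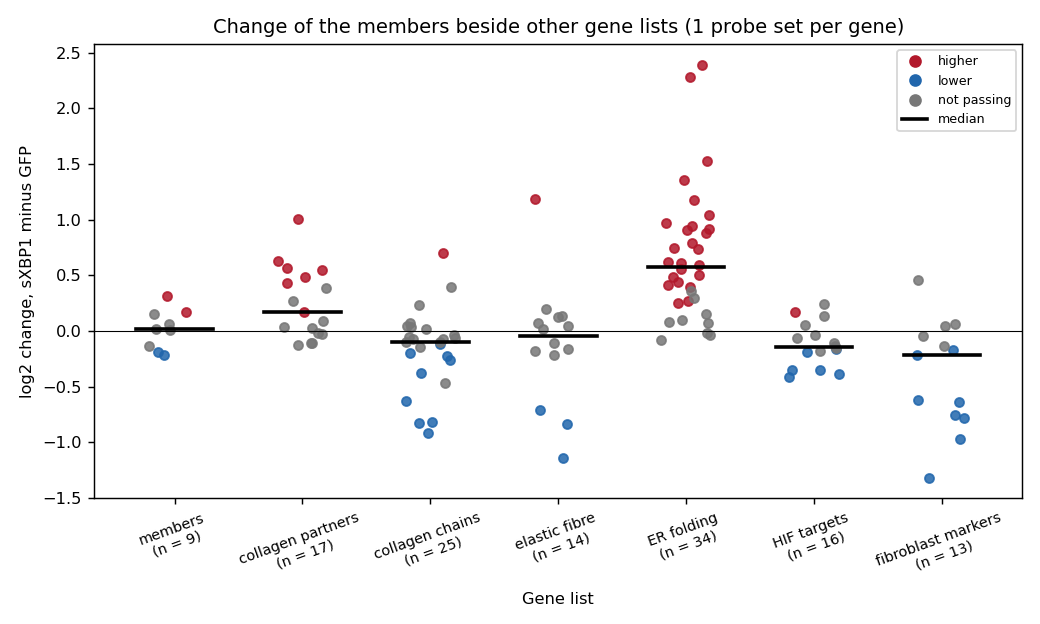
Log2 change (sXBP1 minus GFP, vertical axis) of each gene in the members and 6 other lists, 1 probe set per gene, coloured by limma call, with each list's median as a bar. The member median is 0.02, against 0.17 for the collagen partners, -0.10 for the collagen chains and 0.58 for the ER folding genes. The median of the collagen chains falls on a dim gene, Col4a6.

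Several members are known targets of hypoxia-inducible factor and of transforming growth factor beta, so other targets of both are given. Of 16 hypoxia-inducible factor targets, 1 rose, 6 fell and 9 did not pass, with a median of -0.14. Over all genes 12.9% were higher and 14.4% lower. The prolyl hydroxylases that mark the factor for destruction, Egln3 and Egln1, fell by 0.41 ± 0.05 and 0.35 ± 0.05 on the log2 scale. Bnip3 and Ndrg1, named after their values were seen, fell by 0.19 and 0.16, and no values after median centring are given for them. Mxi1 fell by 0.35 ± 0.05, and hexokinase Hk2 rose by 0.17 ± 0.05 (limma adjusted p = 0.0267). Hk2 did not pass as deposited (adjusted p = 0.244) or without a trend (adjusted p = 0.104). It also did not pass without any 1 of GFP replicates 2 and 3 and sXBP1 replicates 3 and 4 (adjusted p = 0.0617 to 0.0835). Of 9 targets of transforming growth factor beta, 1 rose, 2 fell and 6 did not pass, counts that say little beside the shares over all genes. Their median of 0.14 is the value of Tagln, which had a mean signal of 5.55 and no present call, so it does not describe the detected targets. The matricellular gene Ccn1 rose by 0.49 ± 0.09, and smooth muscle actin Acta2 fell by 1.06 ± 0.07 on 1 of 2 probe sets. Pmepa1 fell by 0.29 ± 0.09 on 1 of 3 (limma adjusted p = 0.0488). It passed as deposited (adjusted p = 0.0109), but not after median centring (adjusted p = 0.0821), with a pseudocount of 64 (adjusted p = 0.0529) or without a trend (adjusted p = 0.0928). It also did not pass when any 1 array was left out, except sXBP1 replicate 2 (adjusted p = 0.0562 to 0.122).

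Marker genes of cell state moved beside the members, and their part in these results was not tested. In bulk samples fewer cells of a type and less RNA per cell cannot be told apart. Over all genes 12.9% were higher and 14.4% lower. Of 12 adipocyte markers 10 fell and 0 rose (limma; 0 higher at an unadjusted p under 0.05), with log2 changes of -1.48 ± 0.13 for Car3, -1.04 ± 0.14 for Slc2a4 and -0.93 ± 0.13 for Cidec. Their summed signal ranged from 69182 to 75564 on GFP and from 54263 to 65316 on sXBP1 arrays. Summed signals here and in the next paragraph are of deposited values without normalization, so differences in array scale remain in them. Of 13 fibroblast and preadipocyte markers 8 fell and 0 rose (limma; 0 higher at an unadjusted p under 0.05), with log2 changes of -1.32 ± 0.07 for Dpt, -0.62 ± 0.06 for Postn and, on 1 of 2 probe sets, -0.76 ± 0.07 for Pdgfrb. Their summed signal ranged from 64417 to 73719 on GFP and from 56309 to 59357 on sXBP1 arrays. Fn1 and Thy1, named after their values were seen, fell by 0.21 and 0.17, and no values after median centring are given for them. In the samples where these fibroblast markers fell, Lox and P4ha2 rose, Plod2 and Pcolce fell, and the other 5 measured members did not pass.

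Markers of other cell types were in part undetected. Their counts stand beside 12.9% of all genes higher and 14.4% lower. Of 11 macrophage markers 3 rose (Cd14 by 2.65 ± 0.21, Cd68 by 1.79 ± 0.14 and Csf1r by 0.49 ± 0.14), and their summed signal ranged from 757 to 866 on GFP and from 2024 to 3846 on sXBP1 arrays. Csf1r rose on 2 of 3 probe sets and did not pass as deposited (0.34, adjusted p = 0.122), as the mean of its probe sets (0.32, adjusted p = 0.0542) or without any 1 of GFP replicates 2, 3 and 4 and sXBP1 replicates 3 and 4 (adjusted p = 0.0554 to 0.0658). Of the other 8 markers, Adgre1 was called present on all 8 arrays, at a mean signal of 48.8, and changed by -0.12 ± 0.16 (adjusted p = 0.667). Mrc1 and Tyrobp were called present on 2 and 1 arrays, and Ptprc, Itgam, Cd163, Aif1 and Fcer1g on 0. Of 8 endothelial markers none passed (limma; 2 higher and 0 lower at an unadjusted p under 0.05), 5 were present on 0 arrays, and their summed signal ranged from 310 to 409 on GFP and from 387 to 508 on sXBP1 arrays. Of 7 smooth muscle markers 1 fell, Acta2, 3 were present on 0 arrays, and their summed signal ranged from 2395 to 2834 on GFP and from 1490 to 1757 on sXBP1 arrays. The counts of arrays use the authors' deposited present or absent calls, and a probe set not listed there is counted as present on none.

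The 4 sXBP1 arrays were not alike for every member. Relative to the GFP mean, Plod1 stood at 0.07 and -0.06 on sXBP1 arrays 1 and 2 and at -0.26 and -0.29 on arrays 3 and 4, and Plod2 at -0.11 and -0.14 against -0.35 and -0.26. The median of the adipocyte markers stood at -0.36 and -0.40 on arrays 1 and 2 and was lower on arrays 3 and 4, at -1.05 on array 4. On its brightest probe set Lox did not divide this way, at 0.32, 0.25, 0.40 and 0.29 on arrays 1 to 4. P4ha2 did not either, at 0.20, 0.14, 0.15 and 0.21. The second Lox probe set, at 0.32, 0.29, 0.38 and 0.53, was higher on arrays 3 and 4. The dimmer Pcolce probe set stood at -0.11, -0.18, -0.29 and -0.27. The brighter went the other way, at -0.27, -0.23, -0.17 and -0.09. ER folding genes had medians of 0.58, 0.49, 0.64 and 0.60 in the same order. Samples with the same replicate number have no known link.

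**Figure D5:**
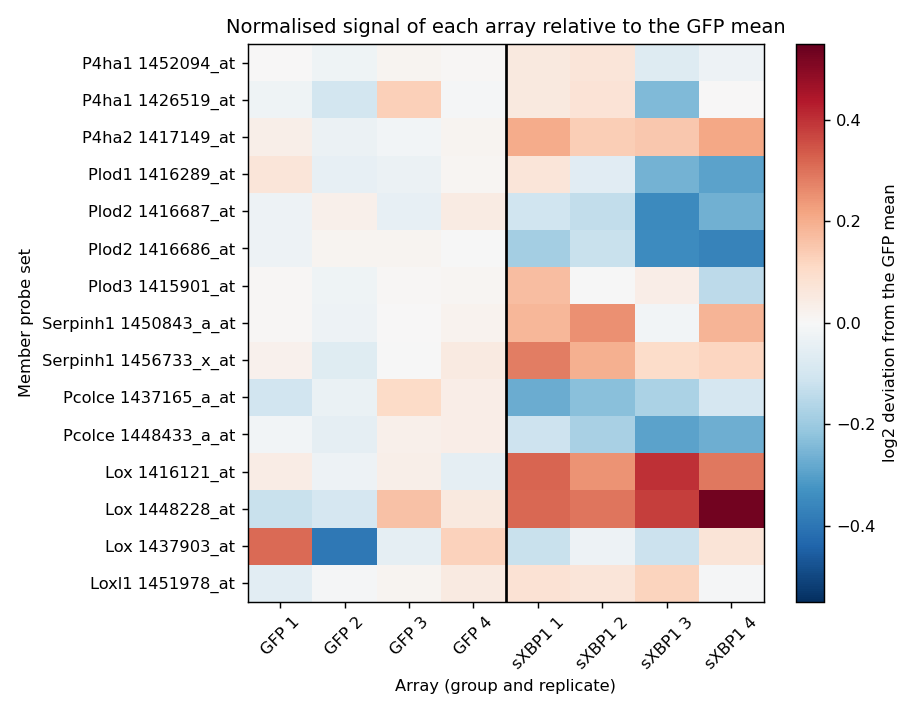
Log2 deviation of each array's normalised signal from the GFP mean (colour scale, red higher and blue lower) for the 15 member probe sets in rows and the 8 arrays in columns, with a line between GFP and sXBP1 arrays. Plod1 and Plod2 are lowest on sXBP1 arrays 3 and 4, whereas the 2 bright Lox probe sets are higher on all 4 sXBP1 arrays.

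Across the series, the overexpressed gene Xbp1 passed on 0 of 4 probe sets, and the one with the highest signal changed by 0.07 ± 0.04 (limma adjusted p = 0.271), and passed after median centring (0.21, adjusted p = 0.0307). The position of these probes against the insert of the virus was not examined, and they are no check on the group labels. Median signal ranged from 135 to 154 on GFP and from 117 to 140 on sXBP1 arrays, and the 3' to 5' signal ratio of Gapdh, a measure of RNA integrity, from 0.810 to 0.820 and from 0.775 to 0.802. In the authors' deposited table the folds of the members ran from -1.22 for the dimmer Plod2 probe set to 1.28 for the second Lox probe set, where a negative fold is GFP over sXBP1.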

How the data were processed

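Total RNA from 8 mouse adipocyte samples was biotin-labelled and hybridised to Affymetrix arrays, 1 array per sample, and the number of arrays limits the precision. Each probe set has a linear signal intensity, as the authors deposited it. The submitters' processing notes name MAS5, without a version or a scaling target. The authors' deposited comparison table gives a score and a signed fold per probe set, with present or absent calls. Groups came from the sample titles.

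After leaving out 64 control probe sets, 22626 were taken as log2(signal + 16), quantile normalized and tested two-sided by limma 3.58.1 (R 4.3.3, lmFit and eBayes with a mean-variance trend). P-values were Benjamini-Hochberg adjusted over all probe sets, with a threshold of 0.05. A gene is represented by its single-symbol probe set with the highest mean. The fit was tested on simulated data.

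Members and lists were chosen with earlier results of these data known, so no list was tested. Named were all members, 6 partners (P4hb, Crtap, P3h1, Ppib, Fkbp10, Mia3), Xbp1, and from each list up to 3 higher and 3 lower genes with the smallest p; others are said to be named after their values were seen. A comparison of member proteins was not made, since no protein sequences were used here. Figures were drawn with matplotlib 3.10.9.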

Additional observations from a re-analysis of the deposited data

Results flagged for a closer look

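In 1 of 98 groups of 4 arrays examined, an array stood apart from the other 3 by Dixon's criterion, which chance meets in about 1 group of 20. It was the GFP group of Mia3, where replicate 1 had a normalised signal of 2629 against 2326 to 2368 on the other arrays, a gap of 0.855 of the group's range. On the deposited scale the same array, at 2454.5, lay within the other 3 (2319.2 to 2535.3).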

How the results depend on the processing

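Of 94 counts under alternative settings (members, ER folding genes and all probe sets, higher and lower), 82 stayed within 1.5 times the reported count, and 0 changes of named genes that passed under either setting reversed. On the values as deposited 1 member was higher and 0 lower, with 1600 probe sets higher over all. After median centring 4 members were higher and 0 lower, and without a variance trend 1 was higher and 0 lower. Leaving out 1 array in turn gave 2 to 3 members higher, 0 to 2 lower, 25 to 27 ER folding genes higher and 0 lower (limma; at an unadjusted p under 0.05, 0 to 1 folding genes lower). The cause of these shifts was not tested. With the replicate number as a block, 2 members were higher and 2 lower, 26 folding genes were higher and 0 lower, and 2427 probe sets were higher and 2656 lower. The numbers are not shown to pair the samples: deviations of same-numbered arrays correlated at -0.06 to 0.12 and those of other pairs at -0.13 to 0.07, across 12571 probe sets that are not independent. The pseudocounts of 1 and 64 left the member counts at 2 and 2. Restricting to probe sets present on at least 4 arrays, or averaging a gene's probe sets, gave 3 higher and 2 lower. The changes of Plod1, Plod2, Pcolce, P4ha2, Serpinh1 and Loxl1 were all under 0.3 on the log2 scale. They crossed the threshold with such choices on at least 1 probe set, while Lox kept its call under all of them.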
